A study of Mus musculus with 18 samples.

Results

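The comparison described here asks which genes differ between the genotype labels CD4Cre+ and CD4Cre- by a different amount in 2 culture conditions, Tfh_1 and Tfh_A. For each gene, the difference between the labels in Tfh_A (CD4Cre+ minus CD4Cre-) was taken from the same difference in Tfh_1, and this difference of differences was tested against the spread between libraries. It uses 12 of the 18 RNA libraries of the series. A positive value means that the gene stood higher with the CD4Cre+ label in Tfh_1 than in Tfh_A, relative to CD4Cre-, and a negative value the opposite.

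The 4 groups are CD4Cre+ Maf fl/fl in Tfh_1, CD4Cre- Maf fl/fl in Tfh_1, CD4Cre+ Maf fl/fl in Tfh_A and CD4Cre- Maf fl/fl in Tfh_A, with 3 libraries each. All of them carry the floxed Maf gene, so the controls are floxed too and differ by the CD4Cre label. The cells were mouse naive CD4 T cells, kept for 3.5 days on bound antibodies to CD3 and CD28 and then sorted by flow cytometry. What Tfh_1 and Tfh_A contained, and the sorting gate, are not given in the sources used here. Replicates are numbered 1, 3 and 6 with the label CD4Cre+ and 2, 4 and 5 with CD4Cre-. Nothing says that a number is an animal or a culture, so the spread behind each p-value is that between these samples and may be technical.

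Maf encodes c-Maf, a basic leucine zipper transcription factor that binds DNA elements built around the letters TGCTGA. In CD4 T cells c-Maf is known for driving the cytokines IL-21 and IL-10 and for its part in T follicular helper (Tfh) and Th17 cells. Tfh cells help B cells in germinal centres and Th17 cells secrete IL-17. The CD4Cre transgene expresses Cre recombinase under the Cd4 promoter, which removes floxed sequence in T cells from the thymus onward.

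Promoters of genes that passed the test in opposite directions are shown here, so that their letters can be set beside the values below. Each runs from 250 bases before to 50 bases after a RefSeq start, on the build GRCm38.p6 (the full form of mm10) and 5′ to 3′ on the gene's strand, which is plus for all 4. Capitals mark TGCTGA or its reverse complement TCAGCA. Pou2af1 (chr9:51213440-51213739) was called higher, and S100a6 (chr3:90612644-90612943), Dclk1 (chr3:55242114-55242413) and Ebf1 (chr11:44617850-44618149) were called lower.
Pou2af1: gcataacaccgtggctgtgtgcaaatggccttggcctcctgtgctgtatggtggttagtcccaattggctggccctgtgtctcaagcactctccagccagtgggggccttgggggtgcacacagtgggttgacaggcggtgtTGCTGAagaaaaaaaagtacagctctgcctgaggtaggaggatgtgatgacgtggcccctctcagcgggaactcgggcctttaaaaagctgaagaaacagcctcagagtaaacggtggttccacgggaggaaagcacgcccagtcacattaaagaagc
S100a6: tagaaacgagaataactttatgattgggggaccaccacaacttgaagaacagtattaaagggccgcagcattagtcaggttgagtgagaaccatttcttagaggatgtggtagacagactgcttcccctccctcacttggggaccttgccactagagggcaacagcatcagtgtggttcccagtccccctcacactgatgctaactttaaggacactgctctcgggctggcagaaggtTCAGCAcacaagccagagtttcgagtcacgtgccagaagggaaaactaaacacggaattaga
Dclk1: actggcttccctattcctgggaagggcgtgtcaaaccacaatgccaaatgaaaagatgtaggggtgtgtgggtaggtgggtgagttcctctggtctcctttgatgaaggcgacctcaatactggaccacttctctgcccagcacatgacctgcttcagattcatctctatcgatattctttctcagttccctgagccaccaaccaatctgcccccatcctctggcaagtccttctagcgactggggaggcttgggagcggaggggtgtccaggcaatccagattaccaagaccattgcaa
Ebf1: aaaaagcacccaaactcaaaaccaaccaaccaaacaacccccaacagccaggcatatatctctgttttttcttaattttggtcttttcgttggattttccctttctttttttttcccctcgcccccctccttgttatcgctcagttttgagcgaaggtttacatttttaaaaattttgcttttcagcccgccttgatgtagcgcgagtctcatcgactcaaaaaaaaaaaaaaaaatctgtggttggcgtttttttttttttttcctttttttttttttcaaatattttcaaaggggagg
Pou2af1 and S100a6 each hold 1 match to TGCTGA, on opposite strands, and the Dclk1 and Ebf1 windows hold none. The windows of Rnaset2a, Plekho1 and Klf2, called higher, and Vim, called lower, were searched alike and also hold none. They are not printed. Searched on both strands, TGCTGA was present in 4 of 19 promoters of genes called higher (21.1%) and in 7 of 32 of genes called lower (21.9%), against 14.4% of the 8639 promoters of all genes tested and 19.2% of all 27025 in the table. TGACTCA, the core bound by AP-1 factors, was present in 0 of 19 and 3 of 32 (9.4%), against 3.2% of tested genes and 5.2% of the table. CACCC, the core of elements bound by Klf factors, was present in 16 of 19 (84.2%) and 24 of 32 (75%), against 62.2% of tested genes and 56.8% of the table. TGCTGA and TGACTCA can overlap by the letters TGA. A match is a description of letters, not of a site in use.

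The 12 libraries held 6424874 to 9236153 counts each, with 10725 to 12588 genes above 0. Spearman coefficients across genes were 0.881 to 0.926 between libraries of 1 group. The first principal component, with 20.2% of the variance, separated the cultures. The 2 most abundant identifiers, which have no name in the table used, took 37.6% to 38.7% of counts in CD4Cre+ Tfh_1, 33.1% to 41.1% in CD4Cre- Tfh_1, 27.4% to 46.2% in CD4Cre+ Tfh_A and 19.7% to 33.7% in CD4Cre- Tfh_A. Without them, 63 of the 64 genes called below were called again, and no others. Markers of CD4 T cells summed to 4809 to 5482 CPM in CD4Cre+ Tfh_1, 3301 to 3814 in CD4Cre- Tfh_1, 2915 to 3407 in CD4Cre+ Tfh_A and 2698 to 2810 in CD4Cre- Tfh_A. Cd8a was at 0 in all 12, but the list of 7 CD8 T cell markers was not. Its lowest sums were 29.2, 34.8, 33.2 and 35.8 CPM in the same order of groups. Cd8b1 averaged 1.07, 3.35, 3.59 and 2.24 CPM in that order, and Klrd1 34.7, 41.9, 15.7 and 14.5 CPM. CPM are counts scaled to a common effective library size. In bulk RNA, fewer cells of a type and less RNA per cell cannot be told apart.

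Maf, the floxed gene (chromosome 8, 115703253 to 115706894), was read first as a check of the labels. In Tfh_1 it had 219, 269 and 204 CPM in libraries labelled CD4Cre+ (replicates 1, 3 and 6), against 0, 0 and 2.12 CPM in libraries labelled CD4Cre- (replicates 2, 4 and 5). In Tfh_A its values were 23.7, 8.30 and 5.25 CPM with the label CD4Cre+, against 0.278, 0 and 0 CPM with CD4Cre-. Maf RNA was thus near 0 where the label gives no Cre and higher where it gives Cre, in all 12 libraries, which goes against the labels. With the CD4Cre+ label its level was high in Tfh_1 and low in Tfh_A. Over the summed counts Maf was 294-fold higher with the CD4Cre+ label in Tfh_1 (4514 against 15 counts, 95% counting interval 178 to 526) and 142-fold higher in Tfh_A (247 against 2 counts, 38.8 to 1177). The label difference of Maf passed edgeR's test in Tfh_1 (log2 8.21 ± 0.96, adjusted p = 4.84e-04) and not in Tfh_A (7.02 ± 1.19, adjusted p = 0.0902). Its difference of differences was 1.20 ± 3.07 (adjusted p = 1.0), which does not show whether the ratio differs between cultures. This SE is derived from the test's F and is only a rough guide where groups are near 0. In level, Maf differed between the cultures by a log2 of 4.24 with the CD4Cre+ label (Tfh_1 minus Tfh_A, adjusted p = 0.00502). For this reason the groups keep their label names, and a direction between CD4Cre+ and CD4Cre- below is one between labels that the Maf RNA contradicts. Libraries labelled CD4Cre+ are those that held more Maf RNA in each culture.

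The label difference of 64 of 11204 genes differed between Tfh_1 and Tfh_A (edgeR's quasi-likelihood test, Benjamini-Hochberg adjusted p under 0.05, here termed called), which is 0.571% of the genes tested. Values after ± are standard errors for log2 differences and SD for CPM. Of these, 24 had a positive difference of differences (0.214%), led by Pou2af1, Rnaset2a, Plekho1 and Lsp1, and 40 a negative one (0.357%), led by Dclk1, Il24, S100a6 and Ebf1. The pattern was mostly a difference in Tfh_1 with little in Tfh_A: 56 of the 64 had the larger label difference in Tfh_1 and 8 in Tfh_A. The 24 genes had a median log2 label difference of 1.62 in Tfh_1 and -0.24 in Tfh_A, and the 40 genes one of -1.77 in Tfh_1 and 0.36 in Tfh_A. Over all genes tested, with both signs mixed, the medians were -0.02 in Tfh_1 and 0.00 in Tfh_A. The size of the label difference in Tfh_A was under 1 on the log2 scale for 59 of the 64 and under 0.5 for 38. The 64 were chosen, and the 24 and 40 parted, by the difference between these same values. These counts and medians thus follow in part from that choice. The matching shares over all genes tested are not given here.

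In Tfh_1 alone 196 genes (1.75%) passed the test between labels, 107 higher (0.955%) and 89 lower (0.794%) with CD4Cre+, and 54 of the 64 were among them. In Tfh_A alone 1 gene passed (0.00893%). This was Aldoc, the aldolase C of glycolysis, with 146, 119 and 142 CPM in CD4Cre+ Tfh_A libraries, against 55.4, 51.3 and 40.3 CPM in CD4Cre- Tfh_A libraries (log2 1.47 ± 0.22, adjusted p = 0.00269). Aldoc was also higher with CD4Cre+ in Tfh_1, and its difference of differences was -0.55 ± 0.30 (adjusted p = 0.661). The 3 libraries of each label did not overlap for 63 of the 64 genes in Tfh_1, where 17.0% of all genes tested behave so, and for 20 of the 64 in Tfh_A, where 13.5% do. The test of the interaction uses these same libraries, so these counts follow in part from the choice of genes. The counts of 64, 196 and 1 moved when a library was left out. The 64 became 41 without CD4Cre- Tfh_A replicate 4 and 35 without CD4Cre- Tfh_A replicate 5. The 196 became 127 without CD4Cre+ Tfh_1 replicate 1 and 115 without CD4Cre- Tfh_1 replicate 5. The split of the 196 into higher and lower turned to 59 and 68, 103 and 112, and 85 and 89 without CD4Cre+ Tfh_1 replicates 1, 3 and 6, and was even with DESeq2 (291 each way). The 1 in Tfh_A became 0 without CD4Cre- Tfh_A replicate 5, where 456 genes had an unadjusted p under 0.05, 2 without CD4Cre- Tfh_1 replicate 5 or CD4Cre- Tfh_A replicate 4, 8 and 5 without CD4Cre+ Tfh_A replicates 3 and 6, and 18 without CD4Cre- Tfh_A replicate 2.

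**Figure D1:**
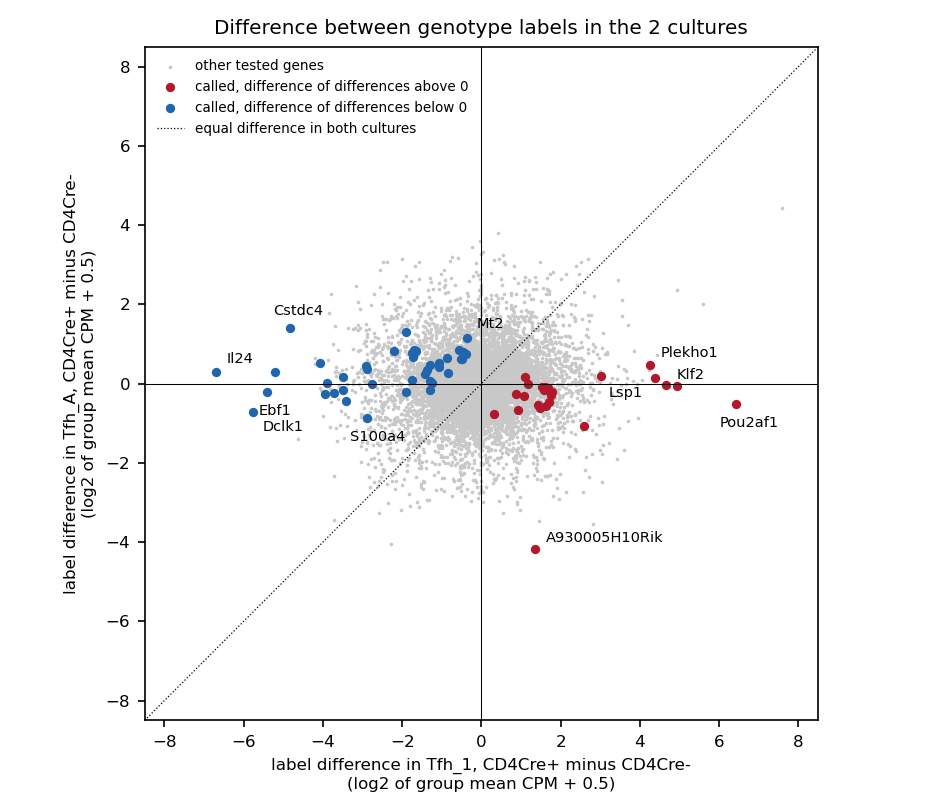
Label difference of every tested gene in Tfh_1 (horizontal axis) and in Tfh_A (vertical axis), each CD4Cre+ minus CD4Cre- on the scale log2 of group mean CPM + 0.5. The 64 called genes are coloured, 24 above and 40 below 0 in their difference of differences, and the dotted line marks an equal difference in both cultures. Most coloured points lie far from 0 along the horizontal axis and near 0 along the vertical one.

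Of the 64, 31 kept the call when any of the 12 libraries was left out, 11 higher and 20 lower. 22 of these also kept it under every other setting tried, and they carry most of the account below. The other 33 lost the call in at least 1 of the 12 fits. Values of groups with 0 counts are compared through counts, because a fitted fold change against 0 depends on the method.

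Genes for S100 proteins, galectins and structural proteins, which are known to be high in effector and memory T cells, made the largest set of calls within a list. Of 16 list members tested, 5 were called lower and 0 higher, against a background of 0.357% and 0.214%. The median difference of differences of the 16 was -0.91, against -0.03 for all genes tested. The list was chosen with earlier results of these data known, so these values describe it and do not test it. The called members are S100a6 and S100a4, which encode calcium-binding proteins, Vim, the intermediate filament vimentin, Lgals3, the sugar-binding galectin-3, and Anxa6, a membrane-binding annexin. Summed over the list, CPM were 5141 to 5990 in CD4Cre+ Tfh_1, 8107 to 9049 in CD4Cre- Tfh_1, 7596 to 9080 in CD4Cre+ Tfh_A and 6620 to 7528 in CD4Cre- Tfh_A. The CD4Cre+ Tfh_1 libraries lay below all others.

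S100a6 (chromosome 3, 90612894 to 90614414; its promoter is printed above) had 90.0, 68.5 and 95.4 CPM in CD4Cre+ Tfh_1, against 309, 326 and 317 CPM in CD4Cre- Tfh_1. Its Tfh_A values were 1314, 1356 and 1063 CPM with CD4Cre+, against 1495, 1341 and 1445 CPM with CD4Cre-. The labels were clearly apart in Tfh_1 and overlapped in Tfh_A, while both Tfh_A groups stood above both Tfh_1 groups. The log2 label difference was -1.91 ± 0.16 in Tfh_1 and -0.20 ± 0.15 in Tfh_A, and the difference of differences was -1.71 ± 0.22 (edgeR, adjusted p = 6.78e-05). S100a4, its neighbour on chromosome 3, had 18.8, 11 and 25.1 CPM in CD4Cre+ Tfh_1 and 183, 105 and 128 CPM in CD4Cre- Tfh_1. The Tfh_A libraries gave 374, 343 and 261 CPM with CD4Cre+ and 587, 539 and 672 CPM with CD4Cre-. S100a4 was lower with CD4Cre+ in both cultures, without overlap, but by log2 -2.92 in Tfh_1 and -0.88 in Tfh_A, where it missed the threshold (adjusted p = 0.216). Its difference of differences was -2.04 ± 0.33 (adjusted p = 7.95e-04).

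Vim had 415, 597 and 432 CPM in CD4Cre+ Tfh_1, against 1470, 1453 and 1947 CPM in CD4Cre- Tfh_1, and 738, 871 and 1247 CPM in CD4Cre+ Tfh_A, against 762, 1106 and 791 CPM in CD4Cre- Tfh_A. Here the 2 Tfh_A groups lay between the 2 Tfh_1 groups, so Vim differed between the cultures in opposite directions with the 2 labels (log2 Tfh_1 minus Tfh_A -0.98, adjusted p = 0.00167, with CD4Cre+ and 0.87, adjusted p = 0.00579, with CD4Cre-). Its difference of differences was -1.86 ± 0.27 (adjusted p = 3.90e-04). The values of Vim were not whole in 10 of 12 libraries, so some reads may be shared with other genes.

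Lgals3 had 86.2, 59.0 and 62.8 CPM in CD4Cre+ Tfh_1, against 207, 261 and 207 CPM in CD4Cre- Tfh_1, and 225, 153 and 93.0 CPM in CD4Cre+ Tfh_A, against 124, 70.4 and 67 CPM in CD4Cre- Tfh_A. The labels overlapped in Tfh_A, with a higher mean for CD4Cre+, and the difference of differences was -2.55 ± 0.39 (adjusted p = 5.00e-04). Anxa6 had 82.3 ± 12.2 CPM in CD4Cre+ Tfh_1, 173 ± 53.3 in CD4Cre- Tfh_1, 356 ± 29.4 in CD4Cre+ Tfh_A and 266 ± 44.0 in CD4Cre- Tfh_A (SD, n = 3), with a difference of differences of -1.49 ± 0.29 (adjusted p = 0.00825). This call was lost in a fit of all 18 libraries (adjusted p = 0.104). Further members had negative values and did not pass: Lgals1 -0.88 ± 0.22 (adjusted p = 0.0678), Anxa2 -0.93 ± 0.24 (0.0782) and Crip1 -1.05 ± 0.27 (0.0826).

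**Figure D2:**
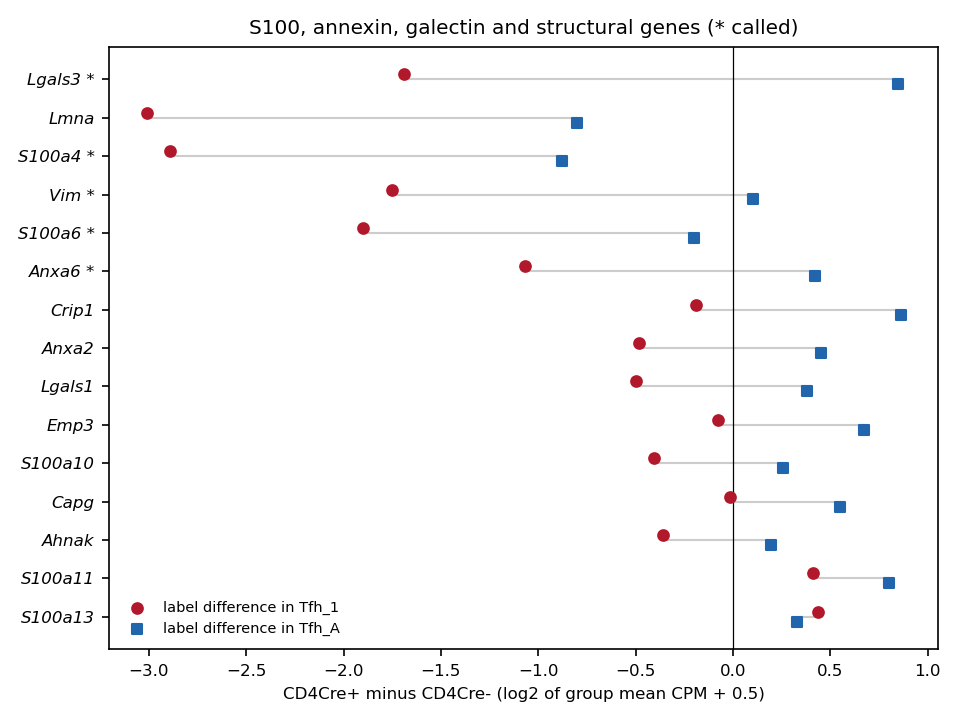
Label difference (CD4Cre+ minus CD4Cre-, log2 of group mean CPM + 0.5) in Tfh_1 (circles) and Tfh_A (squares) for the 15 list genes with at least 10 CPM in a group. An asterisk marks the 5 called genes, and for 14 of the 15 the circle lies left of the square.

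Among secreted factors, Il24 had the smallest p. Il24, a cytokine of the IL-10 family (chromosome 1, 130882074 to 130887411), had 0, 1.15 and 0 CPM in CD4Cre+ Tfh_1, against 76.1, 83.4 and 113 CPM in CD4Cre- Tfh_1. In Tfh_A it had 49.5, 23.3 and 48.7 CPM with CD4Cre+, against 50.0, 14.1 and 34.1 CPM with CD4Cre-. It was all but missing from 1 of the 4 groups and present, with overlapping labels, in Tfh_A. In Tfh_1 it was 258-fold lower with CD4Cre+ (7 against 1766 counts, counting interval 125 to 643), and the difference of differences was -8.21 ± 0.91 (adjusted p = 4.70e-05). Of 27 secreted cytokines and mediators tested, 3 were called lower and 0 higher: Il24, Lgals3 and Penk, the enkephalin precursor. Penk averaged 0.601 ± 1.04 CPM in CD4Cre+ Tfh_1, 11.9 ± 2.57 in CD4Cre- Tfh_1, 102 ± 51.1 in CD4Cre+ Tfh_A and 90.0 ± 3.97 in CD4Cre- Tfh_A (SD, n = 3; -4.52 ± 0.85, adjusted p = 0.0133). The call of Penk was lost without CD4Cre- Tfh_1 replicate 4 or 5 or any of the 3 CD4Cre- Tfh_A libraries (adjusted p 0.0510 to 0.0683), with a replicate block (0.108), with all 18 libraries (0.119) and with limma-voom (0.133).

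Of the surface receptors, Il2ra, Tfrc, Il1r2, Ramp3 and Lilrb4a were called lower. Il2ra, the α chain of the high-affinity IL-2 receptor, had 228, 298 and 256 CPM in CD4Cre+ Tfh_1, against 567, 601 and 677 CPM in CD4Cre- Tfh_1, and 337, 292 and 359 CPM in CD4Cre+ Tfh_A, against 321, 307 and 356 CPM in CD4Cre- Tfh_A. Its log2 label difference was -1.24 in Tfh_1 and 0.01 in Tfh_A, and the difference of differences -1.24 ± 0.23 (adjusted p = 0.00403). With CD4Cre-, Il2ra was higher in Tfh_1 than in Tfh_A (0.91, adjusted p = 7.35e-04). With CD4Cre+ that difference did not pass (-0.34, adjusted p = 0.286). Tfrc, the transferrin receptor that brings in iron, had 147, 146 and 199 CPM in CD4Cre+ Tfh_1, against 465, 354 and 400 CPM in CD4Cre- Tfh_1, and 408, 490 and 534 CPM in CD4Cre+ Tfh_A, against 489, 484 and 395 CPM in CD4Cre- Tfh_A. For Tfrc the CD4Cre+ Tfh_1 group stood apart from the other 3, which overlapped, and the difference of differences was -1.38 ± 0.25 (adjusted p = 0.00313).

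Il1r2, the decoy receptor for IL-1, had 0 counts in all 3 CD4Cre+ Tfh_1 libraries, against 8.38, 11.3 and 1.13 CPM in CD4Cre- Tfh_1. In Tfh_A its values were 43.4, 37.0 and 18.4 CPM with CD4Cre+, against 26, 39.1 and 33.5 CPM with CD4Cre-. Set against 3 counts, the most that a group without counts allows, it was at least 43.6-fold lower with CD4Cre+ in Tfh_1 (0 against 128 counts), while Tfh_A held 733 counts with CD4Cre+ and 880 with CD4Cre- (difference of differences, adjusted p = 0.00180). Ramp3, a partner protein of receptors for calcitonin-family peptides, averaged 3.89 ± 3.35 CPM in CD4Cre+ Tfh_1, 32.1 ± 3.58 in CD4Cre- Tfh_1, 134 ± 30.8 in CD4Cre+ Tfh_A and 103 ± 19.8 in CD4Cre- Tfh_A (SD, n = 3; -3.40 ± 0.59, adjusted p = 0.00358). Lilrb4a, an inhibitory receptor, averaged 0.546 ± 0.946, 15.7 ± 4.30, 45.5 ± 16 and 54.3 ± 3.63 CPM in the same order of groups (-4.61 ± 0.89, adjusted p = 0.00814). It has a close copy, Lilr4b, that was called in the same direction, and reads may be shared between them. All 3 calls were lost with all 18 libraries in the fit (adjusted p 0.0829 for Il1r2, 0.612 for Ramp3 and 0.295 for Lilrb4a) and with limma-voom (0.195, 0.149 and 0.0931 in the same order), and that of Lilrb4a also with a replicate block (0.0896).

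Transcriptional regulators were called in both directions. Pou2af1, a coactivator of Oct factors known from B cells and Tfh cells (chromosome 9, 51213690 to 51240079), had 53.8, 34.9 and 39.5 CPM in CD4Cre+ Tfh_1 and 0 counts in all 3 CD4Cre- Tfh_1 libraries. Its Tfh_A values were 0.190, 12.5 and 10.4 CPM with CD4Cre+, against 7.10, 15.2 and 11 CPM with CD4Cre-. It was at least 279-fold higher with CD4Cre+ in Tfh_1 (855 against 0 counts), and the labels overlapped in Tfh_A (204 against 300 counts; difference of differences, adjusted p = 3.09e-04). Klf2, which maintains homing receptors of naive T cells and restrains the Tfh program in mice, had 54.5, 39.8 and 62.6 CPM in CD4Cre+ Tfh_1, against 1.05, 0 and 3.67 CPM in CD4Cre- Tfh_1. The Tfh_A libraries gave 8.54, 27.8 and 17.9 CPM with CD4Cre+, against 18.5, 23.9 and 13.6 CPM with CD4Cre-. Both Tfh_A groups lay between the Tfh_1 groups, and the difference of differences of Klf2 was 5.05 ± 0.94 (adjusted p = 0.00535), from 5.01 ± 0.74 in Tfh_1 and -0.04 in Tfh_A.

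Ebf1, the early B cell factor (chromosome 11, 44618100 to 45008096), had 0 counts in CD4Cre+ Tfh_1, against 20.9, 16.4 and 25.4 CPM in CD4Cre- Tfh_1. In Tfh_A it had 7.40, 14.8 and 24.4 CPM with CD4Cre+, against 19.2, 23.4 and 11.6 CPM with CD4Cre-. It was at least 138-fold lower with CD4Cre+ in Tfh_1 (0 against 404 counts), with 377 against 471 counts in Tfh_A (difference of differences, adjusted p = 3.09e-04). Ebf1 is also 1 of 18 B cell markers. The defining B cell genes Pax5, Cd22, Ighd and Vpreb3 were at 0 in all 12 libraries. The 18 markers summed to 105 to 133 CPM in CD4Cre+ Tfh_1, 148 to 182 in CD4Cre- Tfh_1, 120 to 179 in CD4Cre+ Tfh_A and 77.3 to 98.3 in CD4Cre- Tfh_A, mostly from H2-Ab1 (means 112, 141, 116 and 57.4 CPM in that order). Of 4 tested B cell markers, Ebf1 was the only one called. Tbx21, which encodes the Th1 regulator T-bet, averaged 0.273 ± 0.473 CPM in CD4Cre+ Tfh_1, 7.80 ± 4.37 in CD4Cre- Tfh_1, 46.8 ± 17.1 in CD4Cre+ Tfh_A and 64 ± 9.08 in CD4Cre- Tfh_A (SD, n = 3; -4.37 ± 0.91, adjusted p = 0.0156). The call of Tbx21 was lost without CD4Cre+ Tfh_1 replicate 1, CD4Cre+ Tfh_A replicate 1 or CD4Cre- Tfh_A replicate 4 (adjusted p 0.0504 to 0.0531), with all 18 libraries (0.494) and with limma-voom (0.283).

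**Figure D3:**
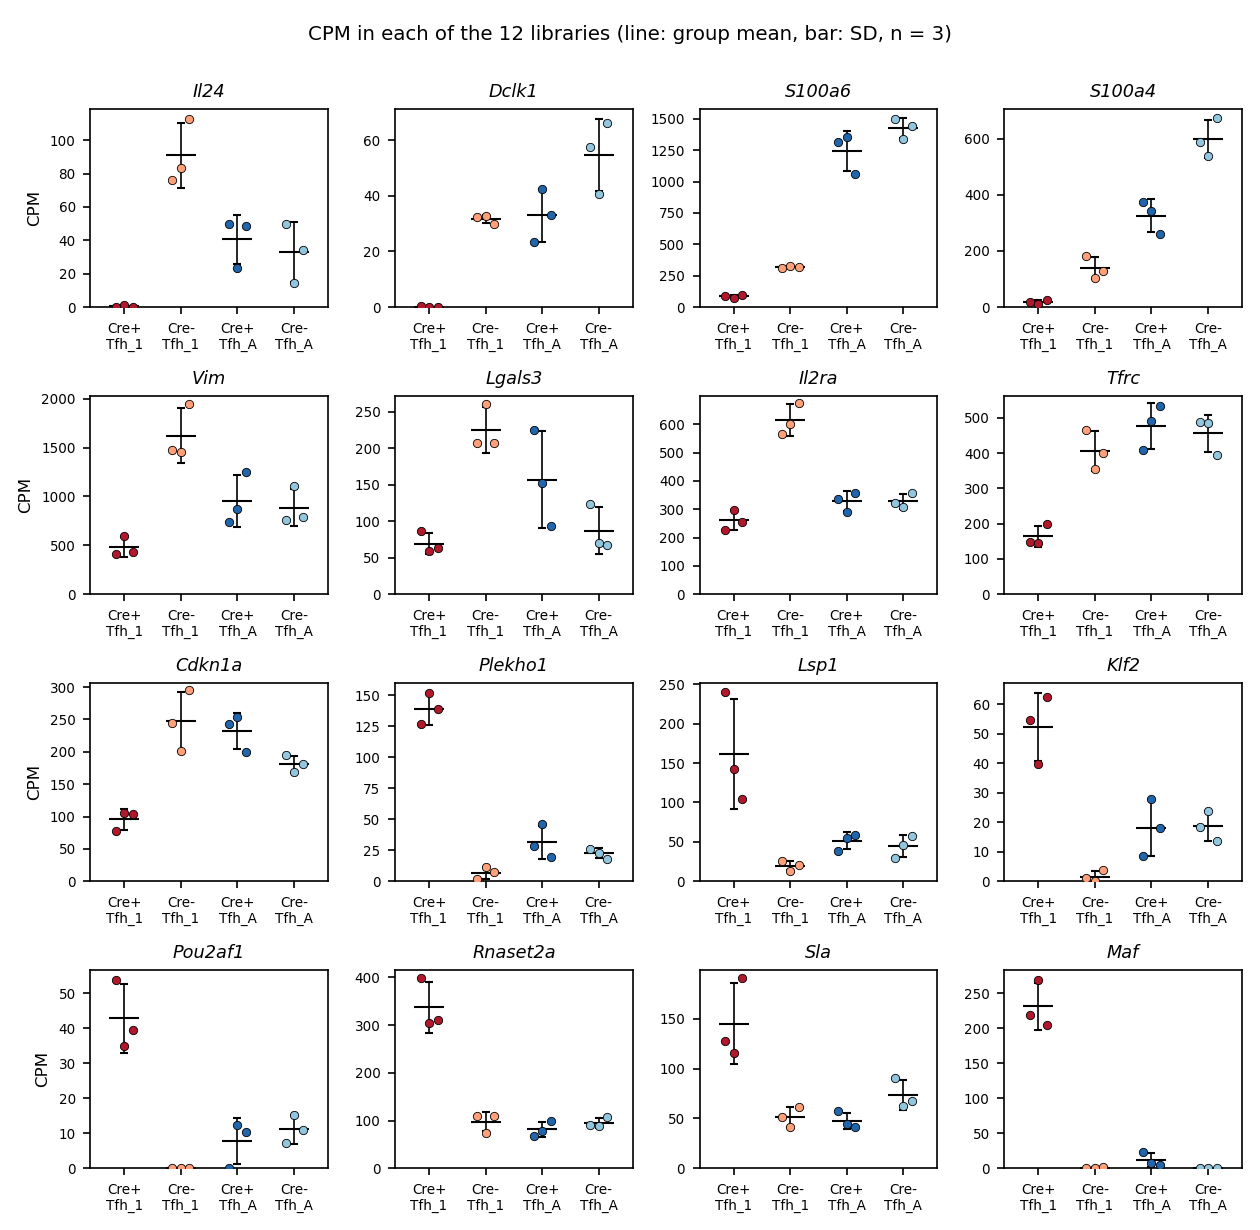
CPM of 16 genes in each of the 12 libraries, with Tfh_1 left of Tfh_A and CD4Cre+ left of CD4Cre- in each culture. Points are libraries, lines group means and bars SD (n = 3), and each axis starts at 0. Il24 and Dclk1 are near 0 in CD4Cre+ Tfh_1 and Pou2af1 in CD4Cre- Tfh_1, and for most genes the Tfh_A groups lie close together.

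Kinases, adaptors and regulators of the cytoskeleton and cell cycle were also among the calls. Dclk1, a microtubule-binding kinase (chromosome 3, 55242303 to 55539068), had the smallest p. It had 0.263, 0 and 0 CPM in CD4Cre+ Tfh_1, against 32.5, 32.8 and 29.9 CPM in CD4Cre- Tfh_1, and 23.3, 42.5 and 33.1 CPM in CD4Cre+ Tfh_A, against 57.6, 40.7 and 66.3 CPM in CD4Cre- Tfh_A. Dclk1 was 310-fold lower with CD4Cre+ in Tfh_1 (2 against 606 counts, counting interval 85.4 to 2565) and 1.57-fold lower in Tfh_A (798 against 1440 counts), where the libraries overlapped. Its difference of differences was -7.35 ± 0.81 (adjusted p = 1.10e-05).

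Plekho1, which encodes a pleckstrin homology domain protein, had 127, 152 and 139 CPM in CD4Cre+ Tfh_1, against 1.57, 11.3 and 7.34 CPM in CD4Cre- Tfh_1. In Tfh_A its values were 28.3, 46.1 and 19.5 CPM with CD4Cre+, against 26.2, 23.0 and 18.2 CPM with CD4Cre-. The Tfh_A groups again lay between the Tfh_1 groups, and the difference of differences of Plekho1 was 3.87 ± 0.60 (adjusted p = 6.56e-04). Lsp1, a leukocyte protein that binds actin, had 240, 143 and 105 CPM in CD4Cre+ Tfh_1, against 25.1, 13.4 and 20.2 CPM in CD4Cre- Tfh_1, and 38.9, 55.4 and 59.3 CPM in CD4Cre+ Tfh_A, against 29.8, 46.5 and 57.4 CPM in CD4Cre- Tfh_A (2.85 ± 0.46, adjusted p = 7.95e-04). These 2 and Klf2 were high in 1 Tfh_1 group and low in the other, with Tfh_A in the middle.

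In another set the CD4Cre+ Tfh_1 group stood high and the other 3 means lay closer together. Rnaset2a, a ribonuclease gene of the T2 family, averaged 337 ± 52.9 CPM in CD4Cre+ Tfh_1, 97.6 ± 20.4 in CD4Cre- Tfh_1, 82.0 ± 15.8 in CD4Cre+ Tfh_A and 95.6 ± 10.8 in CD4Cre- Tfh_A (SD, n = 3; 2.01 ± 0.30, adjusted p = 3.99e-04). Its near copy Rnaset2b was called in the same direction, and reads may be divided between them. Ssh2, a phosphatase that activates the actin-severing protein cofilin, averaged 264 ± 68.9, 86.7 ± 14, 91.7 ± 19.8 and 97.2 ± 10.1 CPM in the same order (1.69 ± 0.32, adjusted p = 0.00579). Smap2, a GTPase-activating protein for Arf, averaged 135 ± 12.6, 41.2 ± 4.24, 38.9 ± 10.3 and 53.9 ± 7.56 CPM (2.17 ± 0.38, adjusted p = 0.00207). Sla, an adaptor that dampens T cell receptor signalling, averaged 145 ± 40.5, 51.6 ± 9.97, 47.5 ± 8.42 and 73.6 ± 14.6 CPM (2.12 ± 0.37, adjusted p = 0.00233). For Sla the libraries were apart in both cultures and in opposite directions. Sting1, the adaptor of cytosolic DNA sensing, differed in form: it averaged 209 ± 39.7 CPM in CD4Cre+ Tfh_1 and was lowest, at 69.6 ± 21.2, in CD4Cre- Tfh_1, with 128 ± 20.7 in CD4Cre+ Tfh_A and 143 ± 38.1 in CD4Cre- Tfh_A (1.73 ± 0.34, adjusted p = 0.00819).

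Cdkn1a, the cyclin-dependent kinase inhibitor p21, had 76.9, 106 and 104 CPM in CD4Cre+ Tfh_1, against 245, 202 and 295 CPM in CD4Cre- Tfh_1, and 243, 254 and 200 CPM in CD4Cre+ Tfh_A, against 195, 169 and 181 CPM in CD4Cre- Tfh_A (-1.73 ± 0.27, adjusted p = 6.58e-04). Of the 28 tested cell cycle inhibitors and genes of p53 and apoptosis, Cdkn1a was the only call, and the list's median was 0.09. Of 42 proliferation genes 0 were called, and their median was -0.23.

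Over the 24 genes called higher, the group farthest from the mean of the other 3 was CD4Cre+ Tfh_1 on the high side for 11, CD4Cre- Tfh_1 on the low side for 11, CD4Cre+ Tfh_A low for 1 and CD4Cre- Tfh_A high for 1. Over the 40 called lower, it was CD4Cre+ Tfh_1 low for 27, CD4Cre- Tfh_1 high for 7 and CD4Cre- Tfh_A low for 6. These counts rest on the same libraries as the calls, so they follow in part from the choice of genes. Shares over all genes tested are not given here. Il24, S100a6, Tfrc and Cdkn1a show a low CD4Cre+ Tfh_1 group, and AA467197 and Sema4f a high CD4Cre- Tfh_1 group. AA467197, which encodes a small protein related to the mitochondrial subunit Ndufa4, averaged 84.8 ± 5.21 CPM in CD4Cre+ Tfh_1, 284 ± 22.5 in CD4Cre- Tfh_1, 85.6 ± 30.5 in CD4Cre+ Tfh_A and 53.7 ± 16.7 in CD4Cre- Tfh_A (SD, n = 3; -2.42 ± 0.36, adjusted p = 3.90e-04). Between cultures, AA467197 differed with CD4Cre- (Tfh_1 minus Tfh_A 2.41, adjusted p = 6.96e-07) and by -0.01 with CD4Cre+.

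**Figure D4:**
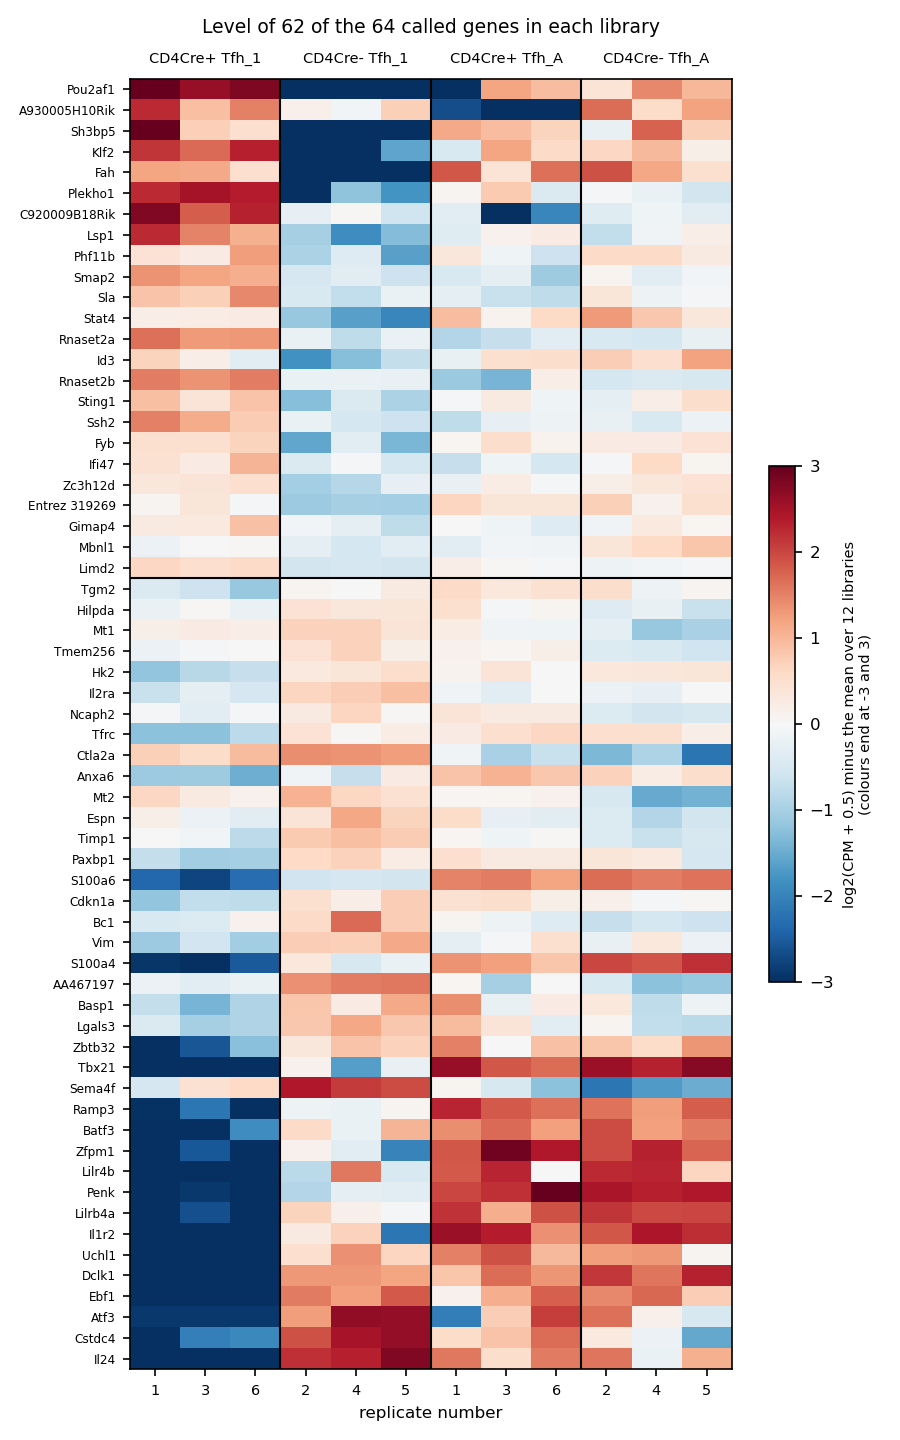
Level of 62 of the 64 called genes in each library, as log2(CPM + 0.5) minus the gene's mean over the 12 libraries, ordered by the difference of differences. The black line parts the 24 genes above 0 from the 38 below 0, and colours end at -3 and 3. The first 3 columns, CD4Cre+ Tfh_1, are red at the top and blue at the bottom, and the next 3, CD4Cre- Tfh_1, mostly the reverse.

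For 49 of the 64 genes the label difference had opposite signs in the cultures, and for 15 the same sign. The label difference in Tfh_A was under 0.5 in size for 38 of the 64 and passed for 0. Its sign is thus often that of a value near 0, as for Il1r2 (0.00) and Il2ra (0.01). For 17 of the 64 the libraries of the labels did not overlap in either culture and lay in opposite directions. The counts of 49 and 17 follow in part from choosing genes by a test on these same libraries. Labels without overlap, in either direction, made up 17.0% of all genes tested in Tfh_1 and 13.5% in Tfh_A. The share with opposite directions over all genes tested is not given here. Cstdc4, a gene of the cystatin domain family, had 0, 2.62 and 2.88 CPM in CD4Cre+ Tfh_1, against 47.8, 71.1 and 80.3 CPM in CD4Cre- Tfh_1, and 18.4, 22.8 and 41.0 CPM in CD4Cre+ Tfh_A, against 15.2, 11 and 3.93 CPM in CD4Cre- Tfh_A (-6.66 ± 0.98, adjusted p = 6.58e-04). Its label difference in Tfh_A, 1.45, did not pass (adjusted p = 0.695), and its family has close copies, with values not whole in 9 of 12 libraries. Timp1, an inhibitor of metalloproteinases, had 209, 198 and 122 CPM in CD4Cre+ Tfh_1, against 359, 393 and 357 CPM in CD4Cre- Tfh_1, and 219, 192 and 213 CPM in CD4Cre+ Tfh_A, against 157, 132 and 149 CPM in CD4Cre- Tfh_A (-1.58 ± 0.27, adjusted p = 0.00180). Sema4f, a semaphorin, averaged 25.9 ± 9.51 CPM in CD4Cre+ Tfh_1, 98.4 ± 15.8 in CD4Cre- Tfh_1, 15.7 ± 7.05 in CD4Cre+ Tfh_A and 6.05 ± 1.47 in CD4Cre- Tfh_A (SD, n = 3; -3.29 ± 0.57, adjusted p = 0.00201), and lost its call with limma-voom (adjusted p = 0.0657).

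In 8 genes the label difference was larger in Tfh_A than in Tfh_1: Mt2, Mt1, A930005H10Rik, Mbnl1, Tmem256, Hilpda, Ncaph2 and Ctla2a. All 8 lost the call without some library. Mt2, a metallothionein that binds zinc and copper, had 522, 407 and 366 CPM in CD4Cre+ Tfh_1, against 697, 515 and 466 CPM in CD4Cre- Tfh_1, and 350, 352 and 371 CPM in CD4Cre+ Tfh_A, against 243, 118 and 125 CPM in CD4Cre- Tfh_A (-1.52 ± 0.31, adjusted p = 0.0133). Mt1 and Mt2 are close copies that may share reads. The call of Mt2 was lost without CD4Cre- Tfh_1 replicate 2 (adjusted p = 0.0566), without CD4Cre- Tfh_A replicate 5 (0.0552) and with all 18 libraries (0.427). Mbnl1, a splicing regulator, had 282, 320 and 328 CPM in CD4Cre+ Tfh_1, against 267, 222 and 252 CPM in CD4Cre- Tfh_1, and 256, 304 and 299 CPM in CD4Cre+ Tfh_A, against 411, 485 and 566 CPM in CD4Cre- Tfh_A (1.10 ± 0.23, adjusted p = 0.0195). The CD4Cre- Tfh_A group stood apart, and the call was lost without CD4Cre- Tfh_1 replicate 4 (0.0776), without CD4Cre- Tfh_A replicate 5 (0.0949) and with all 18 libraries (0.0829). The values of Mbnl1 were not whole in 12 of 12 libraries, so some of its reads may be shared with other genes. A930005H10Rik, a gene of no stated role, was nearly missing from CD4Cre+ Tfh_A, with 1 count against 244 in CD4Cre- Tfh_A (213-fold lower, counting interval 37.8 to 8433), and had 271 against 95 counts in Tfh_1 (adjusted p = 0.0151). It lost its call without CD4Cre+ Tfh_1 replicate 1, CD4Cre+ Tfh_A replicate 3 or CD4Cre- Tfh_A replicate 2 or 5 (adjusted p 0.0506 to 0.0624) and with a replicate block (0.0606).

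The same values were also compared along the other axis, Tfh_1 minus Tfh_A within a label. With CD4Cre+, 548 genes passed (4.89%), 293 higher (2.62%) and 255 lower (2.28%) in Tfh_1. With CD4Cre-, 456 passed (4.07%), 292 higher (2.61%) and 164 lower (1.46%). Of the 24 genes called higher, the culture difference passed with CD4Cre+ alone for 10, with CD4Cre- alone for 12 and with both for 2, Plekho1 and Lsp1, in opposite directions. Of the 40 called lower, it passed with CD4Cre+ alone for 18, with CD4Cre- alone for 11 and with both for 11, of which 3, namely Vim, Lgals3 and Cstdc4, had opposite signs. S100a6 and S100a4 were lower in Tfh_1 with both labels, by -3.88 and -4.15 with CD4Cre+ and -2.17 and -2.11 with CD4Cre-. The 548 became 343 without CD4Cre+ Tfh_A replicate 3. The 456 became 290 and 295 without CD4Cre- Tfh_1 replicates 2 and 4, and 224 without CD4Cre- Tfh_A replicate 5.

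The genes by which Tfh and Th17 cells are commonly known were mostly not among the calls. Il17a had 97.0, 155 and 102 CPM in CD4Cre+ Tfh_1, against 81.3, 112 and 156 CPM in CD4Cre- Tfh_1, and 6.64, 10.5 and 6.62 CPM in CD4Cre+ Tfh_A, against 7.93, 5.83 and 5.48 CPM in CD4Cre- Tfh_A. The Tfh_1 libraries all lay above the Tfh_A libraries, the labels overlapped in both cultures, and Il17a had a difference of differences of -0.30 ± 0.44 (adjusted p = 0.975). Il21 had 209, 258 and 249 CPM in CD4Cre+ Tfh_1, against 173, 104 and 145 CPM in CD4Cre- Tfh_1, and 37.0, 67.9 and 78 CPM in CD4Cre+ Tfh_A, against 34.0, 62.6 and 39.0 CPM in CD4Cre- Tfh_A (0.33 ± 0.37, adjusted p = 0.948). Icos, the costimulatory receptor of Tfh cells, had 191, 154 and 133 CPM in CD4Cre+ Tfh_1, against 50.1, 88.7 and 93.5 CPM in CD4Cre- Tfh_1, and 335, 267 and 286 CPM in CD4Cre+ Tfh_A, against 314, 205 and 242 CPM in CD4Cre- Tfh_A. Icos passed between labels in Tfh_1 (1.04, adjusted p = 0.00788), but its difference of differences did not (0.82 ± 0.31, adjusted p = 0.390). Pdcd1 was at -0.31 ± 0.57 (adjusted p = 0.988). Cxcr5, Tcf7 and Il10 had SE of 2.91 to 3.35 on the log2 scale, so differences of several fold may have been missed. These SE are derived from the test's F and are no measured detection limit. Ifng, Foxp3, Bcl6 and Prdm1 did not pass the count filter. A further 142 genes passed between labels in Tfh_1 without a called difference of differences. They are not shown to differ only there, and 110 of them had the same sign in Tfh_A. That count follows in part from setting the called genes aside. The share with the same sign over all genes tested is not given here.

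In the other gene lists, also chosen with earlier results of these data known, at most 3 members were called. Of all genes tested, 0.214% were called higher and 0.357% lower. Of 21 tested genes of the Tfh program 2 were called higher, Pou2af1 and Id3, an inhibitor of E proteins, and the median was 0.44. Id3 averaged 59.6 ± 19.8 CPM in CD4Cre+ Tfh_1, 21.7 ± 8.4 in CD4Cre- Tfh_1, 62.4 ± 16.8 in CD4Cre+ Tfh_A and 91.6 ± 23.5 in CD4Cre- Tfh_A (SD, n = 3; 2.01 ± 0.46, adjusted p = 0.0348). Its call held only without CD4Cre+ Tfh_1 replicate 6, CD4Cre- Tfh_1 replicate 5, CD4Cre+ Tfh_A replicate 6 or CD4Cre- Tfh_A replicate 2 or 4, and the other 7 fits gave adjusted p of 0.0576 to 0.176. Id3 also lost the call with a replicate block (adjusted p = 0.0558), limma-voom (0.0720) and all 18 libraries (0.249). Of 27 naive and quiescence genes Klf2 was called higher (median 0.38), and of 24 chemokine receptor and migration genes Lsp1 (0.20). Of 22 genes of the TGF-β response Id3 was called higher and 1 gene lower (-0.43), and of 18 Th1 and cytotoxic genes Stat4, the signal transducer of IL-12, higher and Tbx21 lower (-0.04). The call of Stat4 held only without CD4Cre- Tfh_1 replicate 2 or CD4Cre+ Tfh_A replicate 1, and its adjusted p of 0.0492 was among the last inside the threshold. Stat4 also lost the call with other size factors (adjusted p = 0.0518), a replicate block (0.0576), limma-voom (0.175) and all 18 libraries (0.556). Il2ra was the only call among 16 regulatory T cell genes (-0.17), 23 genes of IL-2 and STAT5 (-0.23) and 11 reported c-Maf targets (-0.31).

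Of 30 glycolysis and hypoxia genes the hexokinase gene Hk2 was called lower (median -0.29). Hk2 had 83.0, 106 and 118 CPM in CD4Cre+ Tfh_1, against 234, 245 and 276 CPM in CD4Cre- Tfh_1, and 206, 250 and 192 CPM in CD4Cre+ Tfh_A, against 238, 239 and 243 CPM in CD4Cre- Tfh_A (-1.15 ± 0.26, adjusted p = 0.0263). The call of Hk2 held only without CD4Cre+ Tfh_1 replicate 6, CD4Cre- Tfh_1 replicate 2 or CD4Cre+ Tfh_A replicate 1 or 6. With all 18 libraries in the fit Hk2 also lost the call (adjusted p = 0.124). Of 22 genes of amino acid supply and the ATF4 response the stress factor gene Atf3 was called lower (-0.42), a call that held in 7 of the 12 fits without 1 library. Atf3 also lost the call with limma-voom (adjusted p = 0.0600), a replicate block (0.0754) and all 18 libraries (0.140). None of 19 Th17, 33 cholesterol and fatty acid synthesis, 37 respiratory chain, 26 interferon, 29 T cell receptor activation, 24 Myc and ribosome biogenesis, 15 IL-6 and STAT3, 8 coinhibitory receptor, 5 Th2 and 16 CD4 T cell identity genes was called, and their medians lay between -0.52 and 0.48. Among markers of other cells, 0 of 4 CD8 T cell, 0 of 5 NK and innate lymphoid, 0 of 3 myeloid and dendritic, 0 of 1 γδ T cell and 0 of 2 erythroid markers were called. Sums of NK and innate lymphoid markers were 476 to 564 CPM in CD4Cre+ Tfh_1, 652 to 783 in CD4Cre- Tfh_1, 402 to 596 in CD4Cre+ Tfh_A and 322 to 497 in CD4Cre- Tfh_A. Those of myeloid markers were 54.1 to 71.6, 33.7 to 87.8, 12.5 to 72.8 and 58.5 to 76.2 CPM in the same order. NK and innate lymphoid sums were lower with CD4Cre+ in Tfh_1 and came mostly from Id2, which T cells express too (means 513, 691, 449 and 377 CPM in the same order). Gzma averaged 2.32 CPM in CD4Cre+ Tfh_1 against 0 in CD4Cre- Tfh_1, and Il18r1 10 CPM in CD4Cre+ Tfh_1 against 3.74 in CD4Cre- Tfh_1. The median difference of differences of the 5 tested members was 1.67. B cell sums were also lower with CD4Cre+ in Tfh_1, and the part of either list in the calls was not tested.

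At the threshold, the last genes inside were Stat4 and Ifi47 (both adjusted p = 0.0492) and Ctla2a (0.0498). Just outside were Armcx4 (0.0524), Ikzf3 (0.0533) and Ero1a (0.0573), and 25 genes had an adjusted p from 0.05 up to 0.1. Cish, a suppressor induced by IL-2 signalling, was at -1.08 ± 0.27 (adjusted p = 0.0692) and Tnfrsf4, the costimulatory receptor OX40, at -0.90 ± 0.22 (0.0675).

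The 6 libraries of another culture, Tfh_5, did not enter the test. Of the 64 genes, the labels in Tfh_5 did not overlap and lay in the direction of the difference of differences for 47, where 11.4% of all genes tested do so, in the opposite direction for 0, and overlapped for 17. In a fit of all 18 libraries, 41 of the 64 were called between labels in Tfh_5 in that direction, against 2.87% of all genes tested. Klf2 had 60.7, 50.8 and 31.8 CPM in CD4Cre+ Tfh_5, against 0, 0.142 and 0 CPM in CD4Cre- Tfh_5. Lgals3 had 6.65, 12.9 and 13 CPM in CD4Cre+ Tfh_5, against 240, 202 and 299 CPM in CD4Cre- Tfh_5. Mt1, called mostly for its difference in Tfh_A, had 133, 130 and 116 CPM in CD4Cre+ Tfh_5, against 662, 514 and 519 CPM in CD4Cre- Tfh_5. Genes whose labels overlapped in Tfh_5 include Fah, the last enzyme of tyrosine breakdown, with 0, 0 and 3.10 CPM in CD4Cre+ Tfh_5 and 3.63, 1.42 and 4.35 CPM in CD4Cre- Tfh_5, although it had 200 counts in CD4Cre+ Tfh_1 and 0 in CD4Cre- Tfh_1. Il1r2, Lilrb4a and Ramp3 also overlapped. The same replicate numbers occur in all 3 cultures, so Tfh_5 is not an independent sample if a number is an animal.

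**Figure D5:**
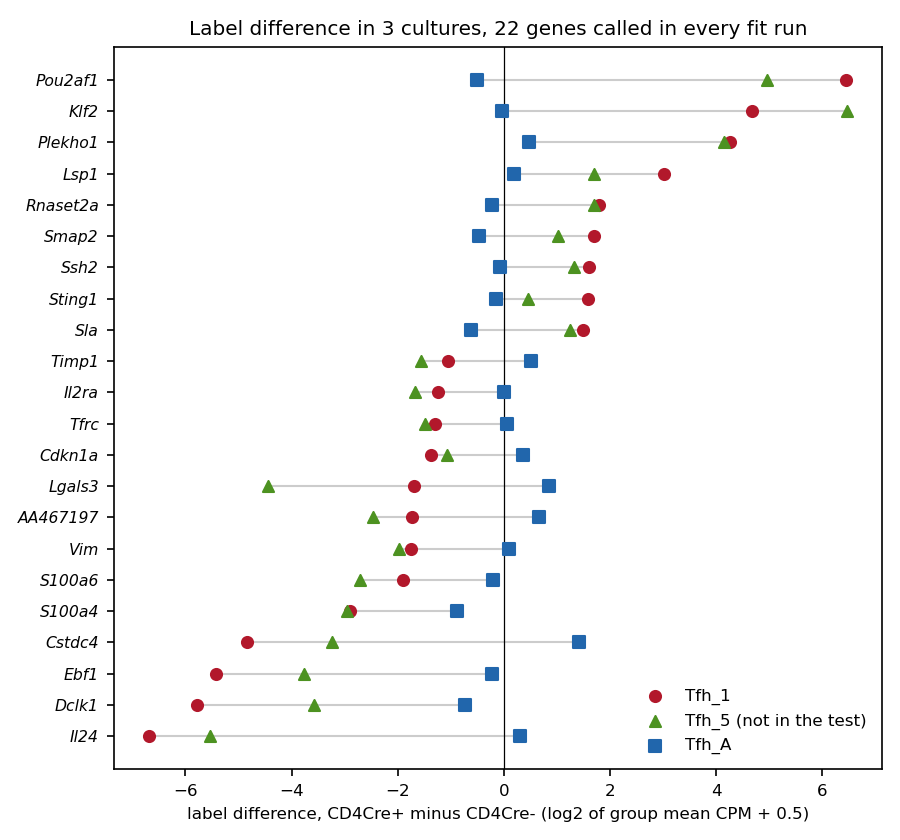
Label difference (CD4Cre+ minus CD4Cre-, log2 of group mean CPM + 0.5) in Tfh_1 (circles), Tfh_5 (triangles) and Tfh_A (squares) for the 22 genes called under every setting tried. For all 22 the triangle lies on the same side of 0 as the circle, and the squares lie closer to 0 than the circles.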

How the data were processed

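RNA was measured in 3′ mRNA libraries, made with a Lexogen FWD kit from 50 ng of RNA per the labels' protocols, so a count reads the end of a transcript. The authors deposited expected counts per gene, made with STAR 2.7.2b and featureCounts 1.6.4 on mm10 per the submitters' processing notes, and the deposited values are not normalized. In the 12 libraries, 13.3% to 16.2% of the 27179 values per library were not whole, so some reads were counted in parts. The sources used here give neither the way reads were divided nor the use of strand, which leaves close copies, overlapping genes and antisense partners uncertain. The tests had been planned for whole counts, and values were rounded to whole numbers first. Identifiers were named through a RefSeq table of GRCm38.p6 (25275 named, 1904 not).

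The difference of differences was computed in R 4.3.3 with edgeR 4.0.16 (TMM, filterByExpr, robust quasi-likelihood fit, 1 mean per group, 12 libraries, 11204 genes), with Benjamini-Hochberg adjustment over all genes and a threshold of 0.05. Adjusted p-values come from this test unless another tool is named. The common biological coefficient of variation was 0.751. The SE is the size of the log2 value divided by the square root of F. CPM are rounded counts scaled by library size times TMM factor (0.799 to 1.34), and values per group are means ± SD. Fold bounds use a floor of 3 counts over a group. Intervals and floors hold counting error alone, since PCR copies of a molecule are counted too. Maf and a lineage panel are named whatever their values, along with the 15 genes of smallest p in each direction with at least 10 CPM in a group and up to 3 members per list, and further called genes were chosen after their values were seen. Some genes that this rule names are not reported here. The members and the 30 gene lists (689 of 690 entries matched) were chosen with earlier results of these data known. Alternatives were other size factors, no count filter, DESeq2 1.42.0, limma 3.58.1 voom, all 18 libraries, values rounded down, removal of the 2 most abundant identifiers, each library left out, and a replicate block.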

Additional observations from a re-analysis of the deposited data

Results flagged for a closer look

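The label difference differed between Tfh_1 and Tfh_A for 64 genes, by the test of the difference itself. For 17 of them every CD4Cre+ library lay on 1 side of every CD4Cre- library in Tfh_1 and on the other side in Tfh_A. Among those, the difference of differences (log2, edgeR) was -6.66 for Cstdc4, -1.73 for Cdkn1a, -1.58 for Timp1, -3.29 for Sema4f and -1.49 for Anxa6, all lower with CD4Cre+ in Tfh_1 and higher in Tfh_A. It was also negative for Bc1 (-1.77), Tmem256 (-1.13), Hilpda (-1.11), Ncaph2 (-1.26), Mt1 (-1.13) and Espn (-1.52). It was positive for Sla (2.12), A930005H10Rik (8.64), Mbnl1 (1.10) and Ifi47 (1.6), which were higher with CD4Cre+ in Tfh_1 and lower in Tfh_A. The fitted value of A930005H10Rik rests on 1 count in CD4Cre+ Tfh_A and depends on the method. None of the 17 passed between labels in Tfh_A alone. The count of 17 follows in part from choosing genes by a test on these same libraries. The share in opposite directions over all genes tested is not given here. Several calls were lost when a library was left out, in 8 of 12 such fits for Ifi47 and Mt1, in 7 for Espn, Tmem256, Hilpda and Ncaph2, in 4 for A930005H10Rik, in 2 for Mbnl1 and in 1 for Bc1. With limma-voom the adjusted p was 0.142 for Bc1, 0.0591 for Espn and 0.0640 for Ifi47, and with all 18 libraries 0.249, 0.291 and 0.119 in the same order.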

How the results depend on the processing

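The 64 genes became 111 with no count filter, 181 with DESeq2 and 28 with all 18 libraries (27 shared), and 35 to 64 when 1 library was left out. The label difference in Tfh_1 gave 196 genes, and 299, 582 and 100 under the same 3 settings, and 115 to 244 without 1 library. In Tfh_A it gave 1, then 33, 152 and 0 (606 with an unadjusted p under 0.05), 21 with limma-voom, and 0 to 18 without 1 library. The culture difference gave 548 with CD4Cre+, then 1016 with DESeq2, 302 with all 18 libraries and 343 to 528 without 1 library. With CD4Cre- it gave 456, then 861, 262 and 224 to 530. Other size factors, limma-voom, values rounded down and removal of the 2 most abundant identifiers left the 64 at 61, 55, 63 and 63. Of the 64, 37 lost the call with all 18 libraries, 20 with limma-voom and 14 with a replicate block. None of the 64 changed direction under any of these settings. The split into higher and lower of the 196 was 107 and 89, and turned without any of the CD4Cre+ Tfh_1 libraries (59 and 68, 103 and 112, 85 and 89). That of the 548 was 293 and 255, and turned with DESeq2 (492 and 524) and without CD4Cre+ Tfh_1 replicate 3 or 6 (213 and 219 without 6). A replicate block gave 54 for the 64 (50 shared), 502 for the 548 and 446 for the 456. Same-numbered libraries did not deviate together across genes (r -0.04 to 0.03, own number best for 2 of 6). Deviations were taken from means of 3 libraries, so this cannot decide whether a number marks an animal. The causes were not tested. With 3 libraries per group and genes at a few CPM, changes of several fold can be missed.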
